A study of Rattus norvegicus with 24 samples.

Results

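The genes described here encode voltage-gated calcium and sodium channels: the pore-forming subunits Cacna1 and Scn, and the subunits that ride with them. They were taken as the probes whose gene name begins with Cacna, Cacnb, Cacng or Scn followed by a digit. A probe also had to be well above background, by the scanner software's own call, in the saline channel on all 4 arrays of at least 1 brain region. Of 55 probes with such a name, 49 passed, and they read 35 genes: 32 probes for 22 calcium channel genes and 17 probes for 13 sodium channel genes. The array held 41012 probes under 35537 names, of which 29464 under 25054 names passed the same filter. The members just inside the limit were 1 probe each of Cacna1s, Cacng4, Cacna1b and Scn10a, above background in saline on 12, 13, 16 and 18 of the 24 arrays. The 6 probes just outside it were those of Cacna1f, Cacng5, Cacng6 and Scn4a and a further probe each of Cacna1c and Scn8a, which were above background on 1, 5, 9, 1, 7 and 1 of the 24 arrays.

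The study gave male Wistar rats an intraperitoneal injection of MK-801 (dizocilpine), a blocker of the NMDA-type glutamate receptor channel, at 0.16 mg/kg (high dose) or 0.08 mg/kg (low dose). Other rats received saline. The sample titles put the word Control before saline and before either dose, so all groups share it, and the titles do not explain it. Brains were taken after 40 min and dissected into cortex, hippocampus, amygdala, ventral striatum, hypothalamus and midbrain. The design text names 9 rats, 3 of them on saline, and an age of 10 weeks, while the sample labels give 9 weeks. Each region and dose was measured on 2 arrays of 2 colours with the dyes exchanged, so 24 arrays set treated RNA against saline RNA of the same region. The labels do not say how many rats went into an extract, whether the 2 arrays of a pair hold different extracts, or whether both doses used the same saline RNA. A pair was therefore counted as 1 replicate, and the 6 regions served as the replicates of a dose. The regions were dissected from the same brains and outnumber the rats of the saline group, so some of them share an animal. The p-values and intervals below therefore measure the spread between regions, not between rats, and are too small as a measure over animals. All levels come from bulk tissue, in which fewer cells of a type and less RNA per cell cannot be told apart.

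Calcium channels of the Cacna1 genes fall into L type (Cacna1c, Cacna1d, Cacna1s), which couple depolarisation to transcription and contraction, P/Q, N and R type (Cacna1a, Cacna1b, Cacna1e), which trigger transmitter release, and T type (Cacna1g, Cacna1h, Cacna1i), which open near rest and support burst firing. The alpha2delta and beta subunits bring the pore to the membrane and set its gating. Several gamma subunits, Cacng2, Cacng3, Cacng4 and Cacng8 among them, are better known in brain as auxiliary subunits of AMPA-type glutamate receptors. Sodium channels carry the upstroke of the action potential: Scn1a, Scn2a, Scn3a and Scn8a are the main pores of central neurons, Scn9a, Scn10a and Scn11a are known from sensory neurons, and Scn2b, Scn3b and Scn4b are among the beta subunits.

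The share of probes well above background ran from 55.7% to 89.3% in the saline channel and from 58.7% to 83.5% in the treated channel of an array, and no channel probe was saturated. Replicate 1 of the high dose stood apart from the other arrays of its region in amygdala, ventral striatum and cortex, by SDs of 0.388, 0.417 and 0.444 over all probes. Without array 1 of each region, which is that replicate, 9 of the 10 members with a named highest region in saline, a call defined further on, kept it, and so did 5 of the 5 with a named lowest region. Replicate 1 of the low dose had SDs of 0.524 in hippocampus and 0.401 in hypothalamus, and replicate 2 of the high dose had 0.491 in hippocampus. Without array 3 or without array 2 of each region, which are those replicates, all 10 and all 5 kept their call. Marker genes of the dissected pieces were highest in the matching piece for ventral striatum (8 of 8 above the mean of the other regions), midbrain (6 of 6), hippocampus (3 of 3) and cortex (4 of 5). The hypothalamus piece was higher in 4 of 6 hypothalamic markers and also in 4 of 4 markers listed for thalamus. Of the latter, Slc17a6, a vesicular glutamate transporter, is not particular to thalamus. It read 14.72 in the hypothalamus piece and 13.81 in midbrain (log2). The amygdala piece, for which no marker was fixed, was higher in 3 of 3 choroid plexus and 6 of 6 meningeal markers, and Avp, a hypothalamic peptide, was highest there at 11.05. Each region was hybridised on a slide of its own, so in the saline levels the slide and the region cannot be told apart, and they are given without a test.

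To show what the arrays read, 11 of the 49 probes are printed, each 60 bases long, with the rn3 coordinates of the scanner files. They include members with a wide regional range whose probe has at least 1 reading frame free of stop codons, as 43 of the 49 members do, and the pairs that are compared further on. The exon, intron or UTR that each one lies in is not given because no annotation of that build was used here. The members with a wide regional range come first.
Scn4b A_43_P10334, chr8:48109084-48109143, plus strand: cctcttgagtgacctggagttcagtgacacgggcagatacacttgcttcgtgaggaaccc
Cacng8 A_43_P13081, chr1:64145826-64148559, minus strand: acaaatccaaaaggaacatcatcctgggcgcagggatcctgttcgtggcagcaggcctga
Cacna1g A_44_P554973, chr10:83058759-83058818, minus strand: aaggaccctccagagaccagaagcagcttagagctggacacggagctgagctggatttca
Cacng2 A_42_P838347, chr7:115964578-116071904, minus strand: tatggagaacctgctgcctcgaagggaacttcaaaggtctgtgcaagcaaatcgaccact
Cacng3 A_44_P341847, chr1:181733724-181733783, plus strand: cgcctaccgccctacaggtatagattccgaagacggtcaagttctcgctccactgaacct
Scn7a A_42_P804822, chr3:48530056-48530115, minus strand: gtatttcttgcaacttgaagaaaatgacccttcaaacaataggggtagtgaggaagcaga
Cacna2d3 A_44_P257326, chr16:4238453-4247997, minus strand: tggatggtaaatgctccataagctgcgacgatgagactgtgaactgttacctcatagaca
The probes of Cacng8, Cacng2 and Cacna2d3 align in separate blocks, over spans of 2734, 107327 and 9545 bases, and so read spliced RNA. Across the 49 members 6 probes had such a split alignment. No 2 probes of different genes shared more than 10 bases in a row, and the GC content ran from 35% to 70% with a median of 46.7%. Cross-hybridisation with the RNA of related genes outside these probes was not checked.

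In saline-treated rats the channel probes differed widely between regions. The gap between the highest and the lowest region mean had a median of 1.22 on the log2 scale over the 49 members, against 0.739 over 28913 probes measured the same way, and was 2-fold or more for 30 of them (61.2%, against 30.8% of all probes). A region was named as highest for a probe where its 4 arrays overlapped no other region's and its mean lay at least 2-fold above the mean of the other 5. That held for 10 members, against 6.87% of all probes, among them both Scn4b probes in ventral striatum, Cacng8 and Scn3b in hippocampus, Cacna1g and Cacng2 in hypothalamus, Scn11a in amygdala, Cacng3 in cortex and 1 of 2 Scn9a probes in midbrain. By the same rule turned round, 5 members had a lowest region, against 3.42% of all probes: Scn4b in amygdala, Cacna1g in ventral striatum, Scn3b and Cacnb1 in hypothalamus and Cacnb3 in midbrain.

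**Figure D1:**
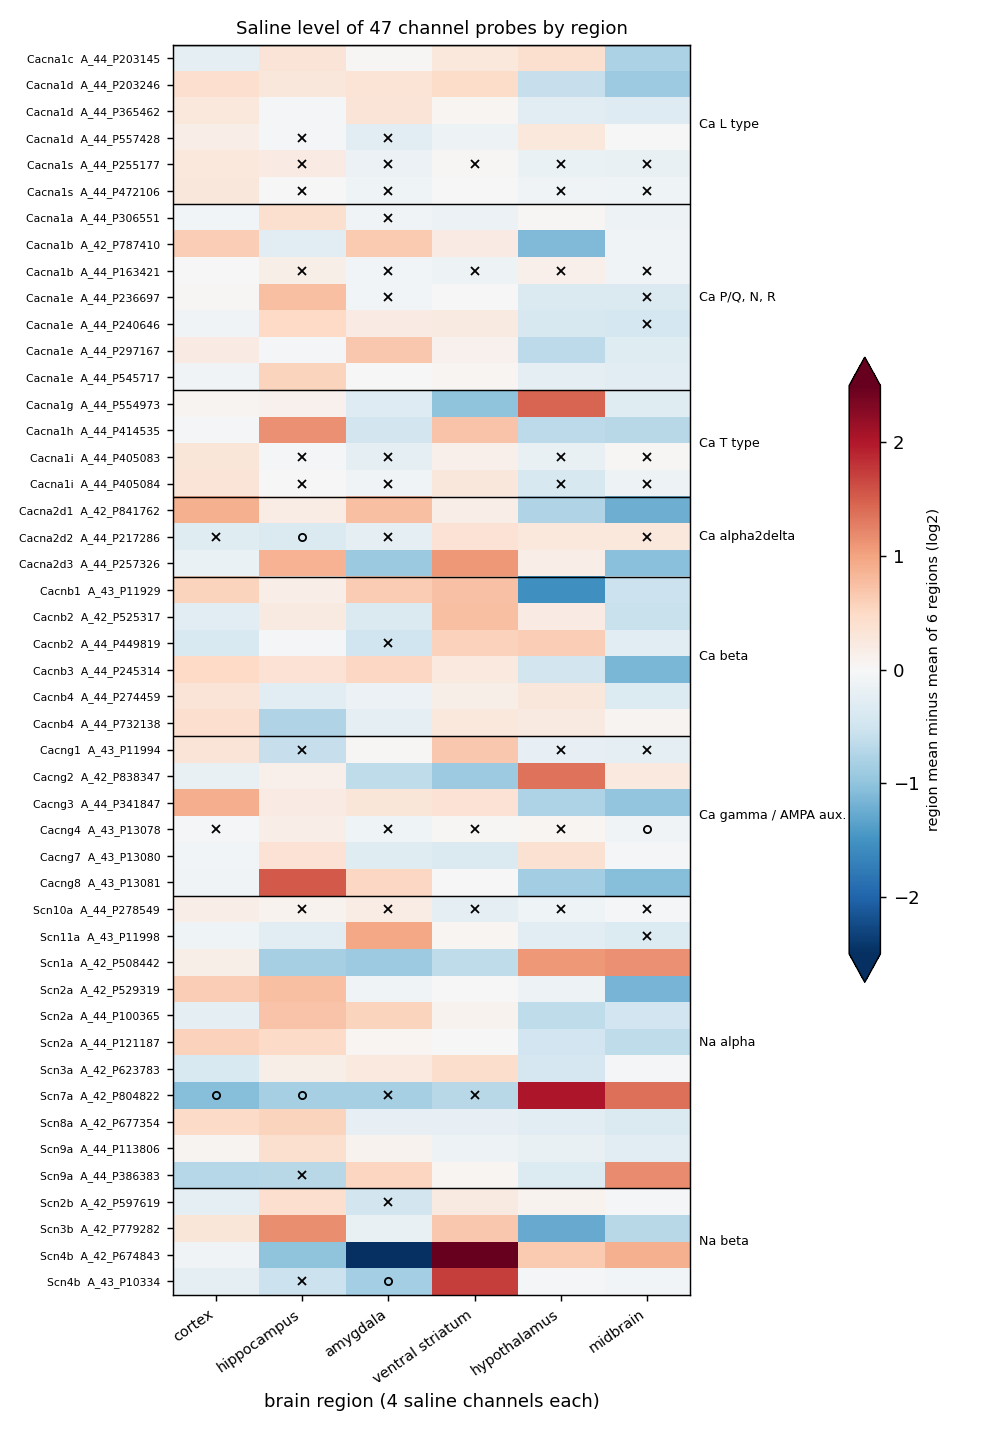
Saline level of 47 of the 49 channel probes (rows, grouped by role) in 6 regions (columns), as the region mean minus the mean of the 6 regions on the log2 scale, with colour limited to 2.5 in either direction. A circle marks a region where no array was above background and a cross one where only 1 to 3 of the 4 were. The Scn4b probes stand out in ventral striatum and many rows are blue in midbrain, which has the lowest mean for 20 of all 49.

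The midbrain column was the lowest for 20 of 49 members, where 14.7% of all probes had their lowest mean, and the highest for 2, where 19.8% of all probes had their highest. The members' median difference from the other regions there was -0.33, against 0.02 for all probes. The hippocampus was the highest for 14 and the lowest for 4, with a median difference of 0.19 (19.7% and 17.5% of all probes had their highest and lowest mean there). The hypothalamus had a median difference of -0.21. Members that were highest in midbrain were Scn1a, the main sodium pore of many fast-spiking interneurons, and 1 Scn9a probe. In the midbrain piece 6 of 6 oligodendrocyte markers and 4 of 8 neuronal markers were above the mean of the other regions, by a median of 1.29 and 0.06. Over the other 5 regions those medians ran from -1.40 to 1.16 and from -0.61 to 0.34, every marker of both lists was above background on all arrays, and their part in the low channel levels was not tested.

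Scn4b, a beta subunit tied to resurgent sodium current, had the widest range of all members. On the 4 ventral striatum arrays its brighter probe, A_42_P674843, read 15.31, 16.13, 16.20 and 16.24, and on the 4 amygdala arrays 9.04, 9.88, 9.91 and 9.95. The means were 15.97 ± 0.44 in ventral striatum, 13.96 ± 0.14 in midbrain, 13.73 ± 0.16 in hypothalamus, 12.97 ± 0.25 in cortex, 12.05 ± 0.09 in hippocampus and 9.70 ± 0.44 in amygdala (log2, SD, n = 4 arrays). Ventral striatum and amygdala stood clear of all other arrays at either end, and the span between their means was 6.27, or 77.4-fold. The dimmer probe, A_43_P10334, read 8.65 to 9.17 in ventral striatum with a mean of 8.83 ± 0.24, and its next region was hypothalamus at 7.06 ± 0.14. In amygdala that probe was above background on 0 of 4 arrays, so ventral striatum was at least 4.94-fold higher there. The bound sets the brighter region's mean against the dimmest level that counts as above background on the amygdala arrays. Both Scn4b probes thus put ventral striatum first and amygdala last. The 8 striatal markers, such as Drd1 and Drd2, had a median of 4.16 above the other regions in the same piece and between -1.32 and -0.45 in the other 5, and their part in the Scn4b level was not tested.

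Scn3b and Scn2b followed other orders. Scn3b, an auxiliary subunit of neuronal sodium channels, read 16.77, 16.87, 16.93 and 16.96 in hippocampus and 14.37, 14.43, 14.49 and 14.57 in hypothalamus. Its means fell in the order hippocampus 16.88 ± 0.08, ventral striatum 16.40 ± 0.21, cortex 16.02 ± 0.11, amygdala 15.55 ± 0.08, midbrain 15.03 ± 0.08 (3 arrays) and hypothalamus 14.46 ± 0.09. The hippocampal arrays lay above all others and the hypothalamic arrays below all others, a range of 5.34-fold. Without normalization between arrays hippocampus was no longer called highest for Scn3b. Scn2b spanned 0.88, from 8.05 ± 0.11 in hippocampus to 7.17 ± 0.11 in amygdala.

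Among the pore-forming sodium subunits the widest was Scn7a, the sodium-sensing channel Nax that glia and sensory organs of the brain express. It read 8.61, 9.48, 9.61 and 9.66 in hypothalamus and 8.57, 8.66, 8.72 and 8.83 in midbrain. In the remaining regions its means lay between 6.25 and 6.62, and it was above background on 0 of 4 arrays in cortex and hippocampus, 1 in amygdala and 2 in ventral striatum. Hypothalamus was at least 8.42-fold above cortex, while its lowest array fell within the midbrain range, so no single highest region was named. The array that made the overlap was replicate 1 of the high dose, and without array 1 of each region hypothalamus was called highest. The same 2 pieces were higher in 6 of 6 oligodendrocyte markers, by a median of 1.16 in hypothalamus and 1.29 in midbrain, against -1.40 to 0.35 in the other 4, and their part in the Scn7a level was not tested.

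Scn1a read 12.13 ± 0.14 in midbrain and 12.07 ± 0.11 in hypothalamus, which overlapped, and then 11.12 ± 0.16 in cortex, 10.35 ± 0.34 in ventral striatum, 10.15 ± 0.51 in hippocampus and 10.07 ± 0.25 in amygdala. The lowest 3 of these overlapped, and the range was 4.18-fold. Scn2a, the pore of immature axons and of excitatory neurons, ran the other way on its brightest probe, A_42_P529319, from 13.88 ± 0.14 in hippocampus to 11.96 ± 0.50 in midbrain, 3.79-fold. Scn3a and Scn8a had ranges of 0.86 and 0.91 on the log2 scale.

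Among the pores known from sensory neurons, Scn9a probe A_44_P386383 read 8.62, 8.76, 8.91 and 9.03 in midbrain, above all other arrays, and 8.20 ± 0.07 in amygdala, with a low of 6.94 ± 0.31 in cortex, 3.72-fold. Scn11a read 7.98, 8.41, 8.46 and 8.50 in amygdala, with the next region, ventral striatum, at 7.40 ± 0.09. The 4 amygdala arrays lay above every other array, by 2.25-fold over the mean of the other regions, and the call was lost without normalization between arrays. In the amygdala piece the choroid plexus markers were higher by a median of 3.65 (3 of 3; -2.49 to 1.63 elsewhere) and the meningeal markers by 1.67 (6 of 6; -1.22 to 0.38 elsewhere). Markers of sensory ganglia were lower there in 4 of 4, with a median of -1.09. The part of these tissues in the Scn11a level was not tested. Scn10a spanned only 0.43.

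T-type calcium channels split by region. Cacna1g read 9.61, 9.70, 9.89 and 10.13 in hypothalamus and 7.18, 7.19, 7.53 and 7.63 in ventral striatum. Hypothalamus (mean 9.83 ± 0.23) lay above and ventral striatum (7.38 ± 0.23) below all other arrays, 5.47-fold apart, with hippocampus at 8.49 ± 0.25, cortex at 8.44 ± 0.39, midbrain at 8.08 ± 0.14 and amygdala at 8.06 ± 0.18 in between. The arrays of cortex overlapped those of each of the other 3 of these. Cacna1h instead was highest in hippocampus at 9.74 ± 0.11 and ventral striatum at 9.31 ± 0.31 and lowest in midbrain at 7.90 ± 0.23, 3.58-fold. Its hippocampal arrays began at 9.60 and those of ventral striatum reached 9.62, so no highest region was named. Without array 2 or array 3 of each region hippocampus was called highest. Cacna1i had its highest mean in cortex on both probes, at 7.39 ± 0.29 and 7.20 ± 0.20, within 0.72 of every other region. Thalamic markers were higher in the hypothalamus piece by a median of 2.16 (4 of 4), against -1.06 to 0.23 in the other pieces, and their part in the Cacna1g level was not tested.

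The gamma subunits split in the same manner. Cacng8, the AMPA receptor partner of hippocampal neurons, read 9.86, 9.97, 10.13 and 10.24 in hippocampus and 7.46 ± 0.16 in midbrain, 6.02-fold lower. Amygdala came second at 9.04 ± 0.18, followed by ventral striatum at 8.51 ± 0.16, cortex at 8.44 ± 0.39 and hypothalamus at 7.65 ± 0.09. With the scanner software's processed signals hippocampus was no longer called highest for Cacng8. Cacng2 (stargazin) read 11.22, 11.34, 11.59 and 11.85 in hypothalamus, above all other arrays, with midbrain at 10.38 ± 0.28 next and ventral striatum lowest at 9.24 ± 0.40, 4.80-fold. It lost the call without normalization between arrays. Cacng3 read 10.25, 10.27, 10.32 and 10.54 in cortex and 8.45 ± 0.20 in midbrain, 3.72-fold, with ventral striatum, amygdala and hippocampus at 9.81, 9.74 and 9.64. Thus each of these 3 genes of 1 family had another highest region. Cacng4 and Cacng7 differed by 0.26 and 0.74 between regions. AMPA receptor genes measured beside them (Gria1 to Gria4 and Cnih2) were higher in hippocampus in 5 of 5, by a median of 1.38, and lower in midbrain in 5 of 5, with a median of -1.51. In hypothalamus, where Cacng2 was highest, 1 of the 5 was higher, with a median of -0.33.

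The alpha2delta and beta subunits, which many pores share, differed in their order of regions. Cacna2d1, the gabapentin-binding subunit, was highest in cortex at 15.54 ± 0.69 and amygdala at 15.40 ± 0.53 and lowest in midbrain at 13.44 ± 0.45, 4.30-fold. Cacna2d3 was highest in ventral striatum at 12.09 ± 0.40 and hippocampus at 11.88 ± 0.16 and lowest in midbrain at 9.97 ± 0.52, 4.35-fold, with hypothalamus spread from 10.01 to 11.59. In both genes the first regions overlapped, but without array 1 of each region Cacna2d1 was called highest in cortex and Cacna2d3 in ventral striatum. Cacnb1 read 10.17, 10.37, 10.59 and 10.63 in hypothalamus, under every other array, while its means elsewhere ran from 11.44 in midbrain to 12.72 in ventral striatum, and the range was 4.86-fold. Cacnb3 had the same kind of gap in midbrain, with 12.91, 13.08, 13.13 and 13.36 there and means from 13.80 to 14.79 in the other 5 regions, 3.19-fold. It lost that call without normalization between arrays. Cacnb2 and Cacnb4 stayed within 1.31 between regions on every probe.

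The L-type pore Cacna1c was lowest in midbrain at 8.53 ± 0.15 and highest in hypothalamus at 9.72 ± 0.07, a range of 2.28-fold, and hypothalamus overlapped hippocampus at 9.63 ± 0.16. Cacna1d probe A_44_P203246 ran from 9.67 ± 0.51 in ventral striatum to 8.31 ± 0.37 in midbrain, 2.57-fold. Cacna1s, the pore of skeletal muscle, was above background on all 4 arrays of cortex only for 1 probe and of cortex and ventral striatum for the other, and spanned at most 0.44. The N-type pore Cacna1b, read by its bright probe A_42_P787410, was highest in amygdala at 13.51 ± 0.05 (3 arrays) and cortex at 13.46 ± 0.40 and lowest in hypothalamus at 11.74 ± 0.93, 3.42-fold, with arrays of hypothalamus overlapping those of hippocampus. The P/Q-type pore Cacna1a spanned 0.56.

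**Figure D2:**
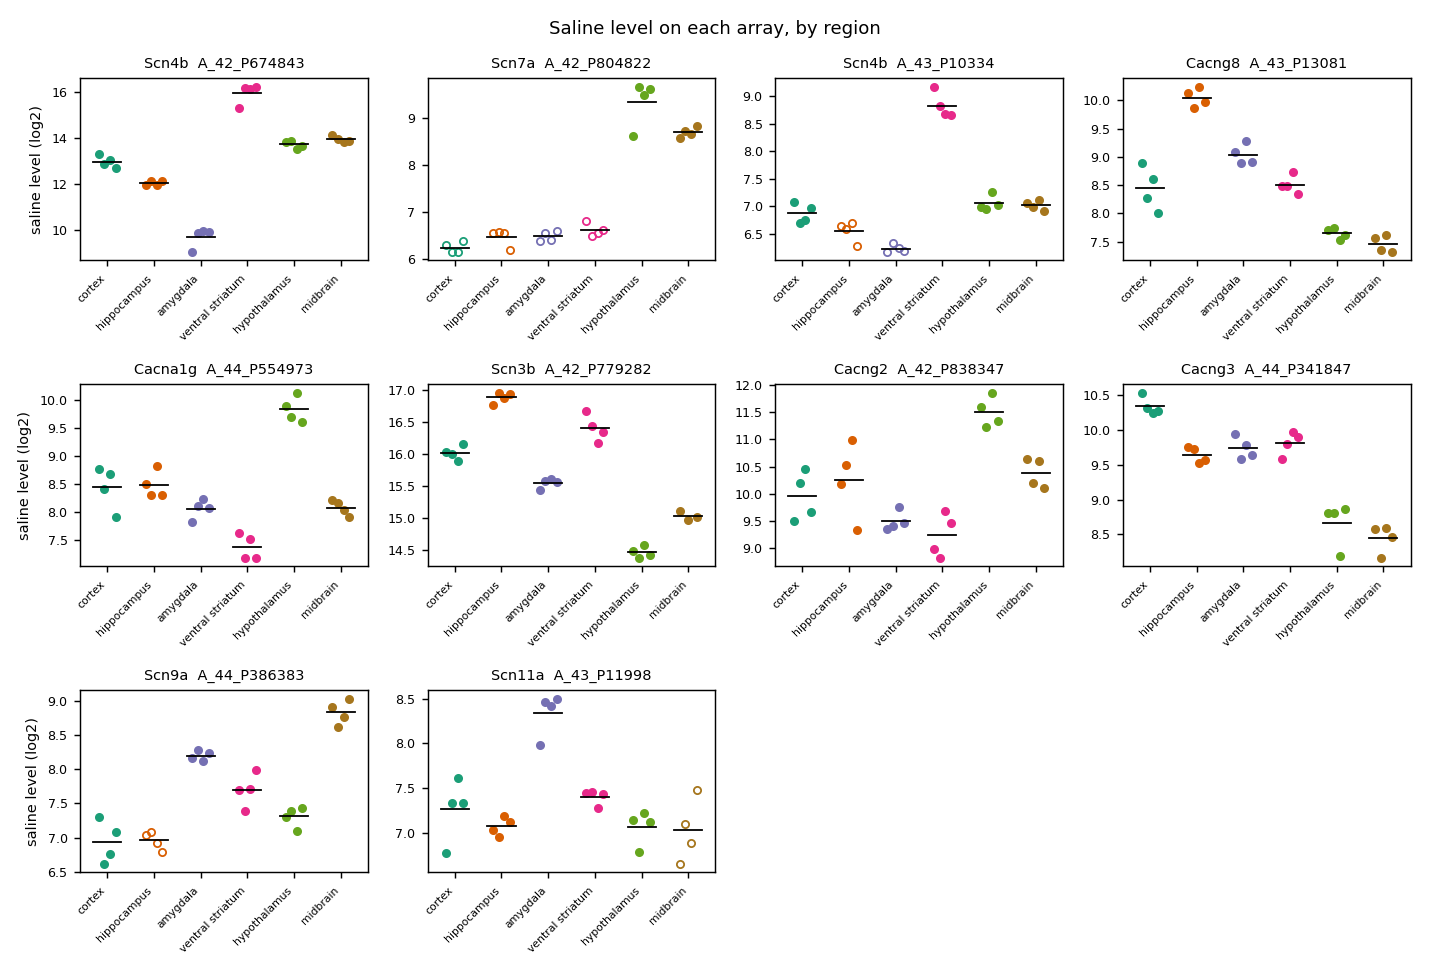
Saline level (log2, each panel on its own scale) on each of the 4 arrays of a region for probes with a named highest region and for Scn7a. Filled symbols are regions above background on all 4 arrays, open symbols those that were not, and bars are region means. The 4 ventral striatum arrays of both Scn4b probes, the hippocampal arrays of Cacng8 and the hypothalamic arrays of Cacna1g lie above all other arrays of their probe, while Scn7a overlaps between hypothalamus and midbrain at 8.61.

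The treated RNA on the same arrays came from other rats and was compared with the saline order. The highest region was the same for 31 of 49 members on the high-dose arrays, 42 on the low-dose arrays and 26 on both, and for all 10 members with a named highest region on both. With the treated channels in place of saline 10 members had a highest region, 9 of them with the same region, and Scn7a gained hypothalamus. The channels of an array are not independent. The departure of a saline channel from the other 3 arrays of its region correlated with that of its treated channel at r = 0.713 to 0.971 over all probes, given as a description.

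Different probes of 1 gene gave a measure of how far such orders depend on the probe. There were 10 genes with 2 or more member probes, making 19 pairs, of which 8 had the same highest and 6 the same lowest region. The correlation of the 6 region means was above 0 in 15 pairs and ran from -0.66 to 0.98 with a median of 0.73, as a description over regions that share their arrays. Probes of genes on which the order can be compared are these. Capitals mark the 36 bases that both Cacna1i probes hold.
Cacna1i A_44_P405083, chr7:118709842-118710877, plus strand: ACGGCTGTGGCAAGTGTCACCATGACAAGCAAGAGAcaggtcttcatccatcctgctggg
Cacna1i A_44_P405084, chr7:118709818-118710853, plus strand: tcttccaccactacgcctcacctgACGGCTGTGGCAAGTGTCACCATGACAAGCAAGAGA
Cacna1e A_44_P236697, chr13:69466895-69466954, minus strand: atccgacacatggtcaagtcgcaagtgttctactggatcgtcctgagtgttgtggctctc
Scn9a A_44_P113806, chr3:48338785-48338844, minus strand: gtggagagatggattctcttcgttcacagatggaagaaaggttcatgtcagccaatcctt
The overlapping Cacna1i probes correlated at 0.84 over regions, and both had their highest mean in cortex. The R-type pore Cacna1e had 4 probes, of which A_44_P236697, A_44_P240646 and A_44_P545717 were highest in hippocampus and lowest in midbrain and correlated at 0.87 to 0.98. The fourth, A_44_P297167, was highest in amygdala at 8.53 ± 0.25 and lowest in hypothalamus at 7.20 ± 0.20, and correlated with the others at 0.29 to 0.61. Among the Scn2a probes the correlations were 0.52 to 0.91. Of these, A_42_P529319 and A_44_P100365 were highest in hippocampus at 13.88 ± 0.14 and 13.61 ± 0.14, and A_44_P121187 in cortex at 10.76 ± 0.29.

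The probes of 3 genes ran against each other. Scn9a probe A_44_P113806 was highest in hippocampus at 7.64 ± 0.19 and lowest in midbrain at 6.97 ± 0.13, whereas A_44_P386383 was highest in midbrain, and the pair correlated at -0.60. The dim Cacna1b probe A_44_P163421 varied by only 0.26 and correlated at -0.66 with the bright one. The Cacna1d probe A_44_P557428 correlated at -0.42 and -0.45 with the other 2, which correlated at 0.85 with each other. For these 3 genes the regional order is therefore given for the named probe only. The dim Cacna1b probe was above background in saline on 16 of the 24 arrays, so its order is read near background. The Scn4b probes correlated at 0.89 and those of Cacnb2, Cacnb4 and Cacna1s at 0.84, 0.73 and 0.83.

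**Figure D3:**
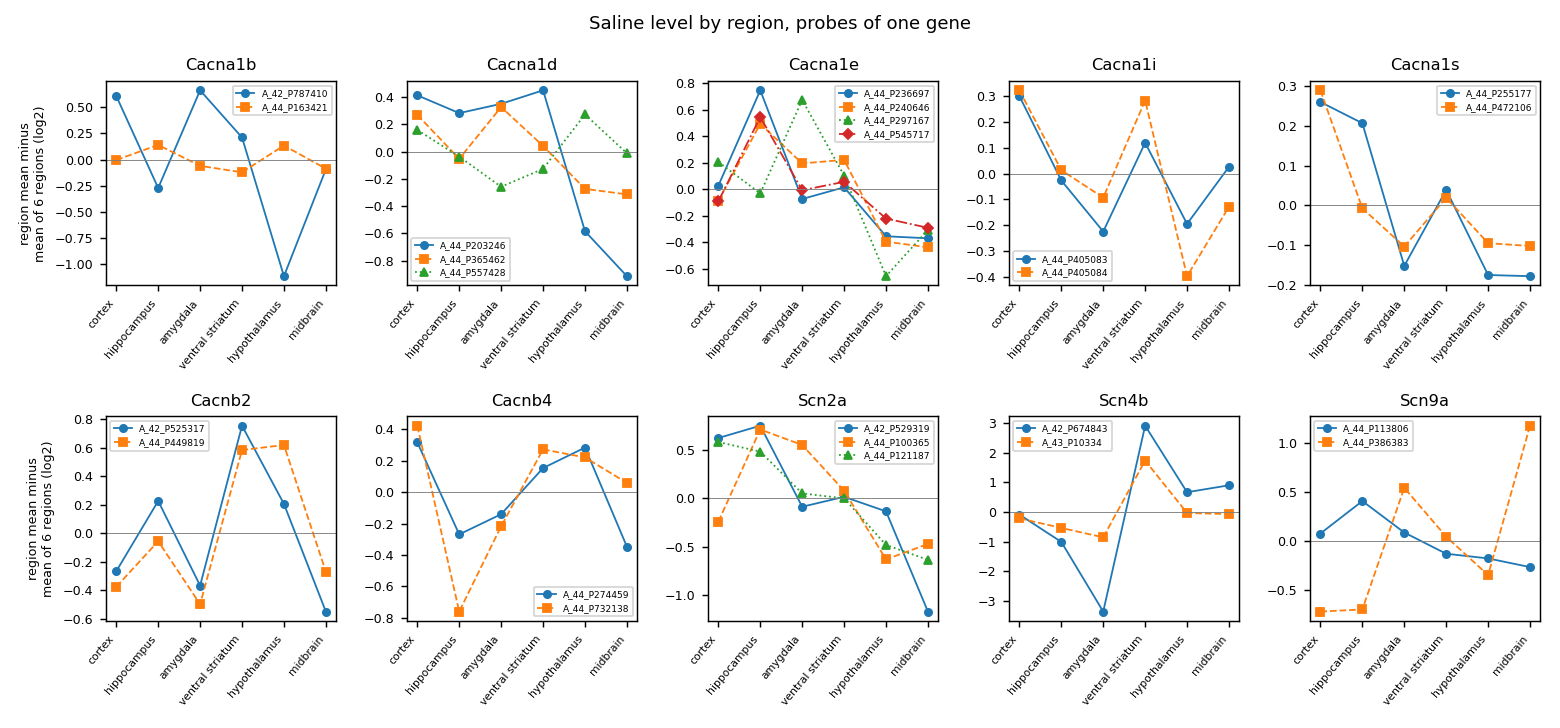
Saline level by region of the 10 genes with 2 or more member probes, each probe centred on its mean over the 6 regions (log2, scales differ between panels, lines join regions only to guide the eye). The Scn4b probes peak together in ventral striatum, while the Scn9a probes peak in hippocampus and in midbrain.

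The second question was whether MK-801 changed these genes within 40 min. No channel probe passed the test at either dose. At 0.16 mg/kg 0 of 43 probes tested were called by limma at an adjusted p under 0.05, against 2.11% of all 26170 probes tested, and 0 had an unadjusted p under 0.05, against 11.9%. At 0.08 mg/kg 0 of 46 were called, against 2.41% of 27368, and 7 (all 12.9%) had an unadjusted p under 0.05. The difference between the doses within regions called 0 of 43, against 1.58% of 25117, with 0 at an unadjusted p under 0.05, against 11%. The members not tested, because fewer than 4 regions were above background, were at the high dose Scn7a, Scn10a, Cacng4, Cacna2d2 and 1 probe each of Cacna1s and Cacna1b. For the low dose they were Scn7a, Cacng4 and the Cacna1s probe.

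The mean log2 ratios of treated over saline were small. They lay between -0.10 and 0.04 at the high dose, with 13 above and 30 below 0 and a median of -0.02 (all probes -0.0017). Those of the low dose lay between -0.10 and 0.11, with 15 above and 31 below 0 and a median of -0.02 (all probes 0.0017). Over all probes 13527 of 26170 at the high dose and 13191 of 27368 at the low dose were below 0. The smallest adjusted p was 0.473 at the high dose, 0.226 at the low dose and 0.489 for the difference between doses. The limits of the 95% interval of each member's mean, taken 1 at a time over regions, stayed within 1.2-fold for all 43, 46 and 43 probes of the 3 comparisons. The lowest bound was -14.0% (Cacna1i, high dose) and the highest 15.6% (Scn4b, low dose). A change confined to 1 region or to 1 cell type is not covered by them.

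**Figure D4:**
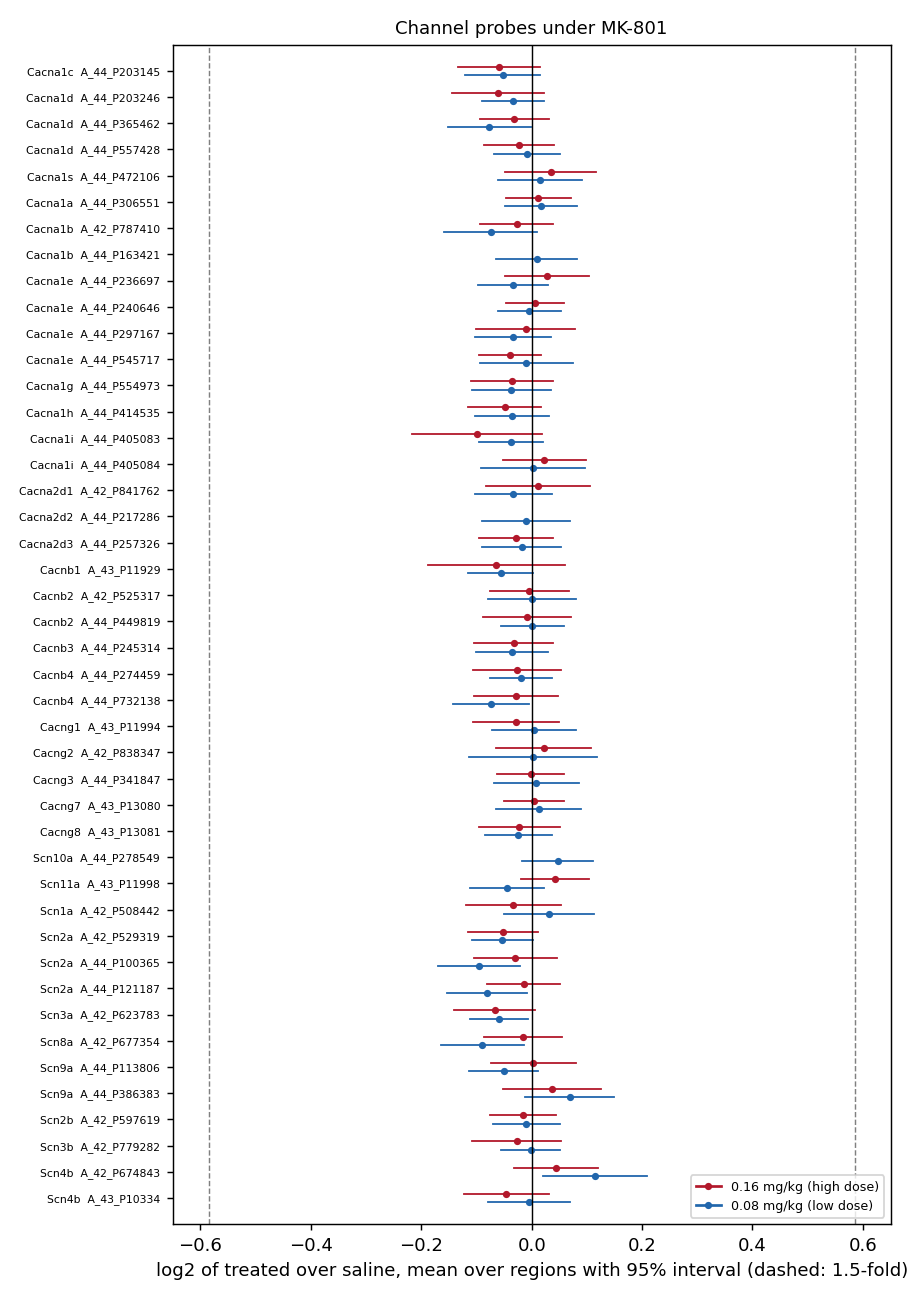
Mean log2 ratio of treated over saline across regions with its 95% interval, for channel probes tested at 0.16 mg/kg (red) and 0.08 mg/kg (blue). The dashed lines mark 1.5-fold, and every interval lies between them, from -0.22 to 0.21.

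No role had a called member in any of the 3 comparisons. At the high dose all 6 beta subunit probes, which read 4 genes, had a mean below 0, from -0.06 to -0.0043. Of the sodium pore probes, some of which read the same gene, 7 of 10 did, with a median of -0.02. Over all probes 13527 of 26170 lay below 0. At the low dose 8 of 11 sodium pore probes lay below 0, with a median of -0.05, against 13191 of 27368 over all probes. Among these 8 were 4 of the 7 members with an unadjusted p under 0.05. The gamma subunits had medians of -0.0018 and 0.0041 at the high and low dose, and the alpha2delta subunits of -0.0090 and -0.02.

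The members with the highest and lowest means show the spread. At the low dose Scn4b A_42_P674843 had a ratio of 0.16 in cortex, 0.02 in hippocampus, 0.37 in amygdala, 0.05 in ventral striatum, 0.08 in hypothalamus and -0.00068 in midbrain. Its mean was 0.11 ± 0.043 (SE, n = 6 regions), with 5 of 6 above 0 and an adjusted p of 0.262. Without amygdala, the region with the dimmest Scn4b signal, the mean was 0.06. At the high dose the same probe read 0.11, -0.08, 0.18, 0.09, -0.02 and -0.02 in the same order of regions, a mean of 0.04 ± 0.035 and an adjusted p of 0.696. Without amygdala this was 0.02. The second Scn4b probe was measured in 4 regions and had ratios between -0.10 and 0.03 at the high dose and between -0.06 and 0.05 at the low dose.

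Scn2a A_44_P100365 was the lowest member at the low dose. It read -0.05 in cortex, -0.10 in hippocampus, -0.22 in amygdala, -0.07 in ventral striatum and -0.02 in hypothalamus, below 0 in all 5 regions measured, with a mean of -0.10 ± 0.033 and an adjusted p of 0.226. The second Scn2a probe, A_44_P121187, had a mean of -0.08 ± 0.033 with 5 of 6 regions below 0 and an adjusted p of 0.314. Scn8a, the pore of nodes and axon initial segments, had -0.09 ± 0.034, 5 of 6 below 0 and an adjusted p of 0.273. Scn3a was below 0 in 6 of 6 regions, from -0.10 to -0.02, with a mean of -0.06 ± 0.024 and an adjusted p of 0.314. The remaining members with an unadjusted p under 0.05 were Cacnb4 A_44_P732138 at -0.07 (adjusted p = 0.337) and Cacna1d A_44_P365462 at -0.08 (adjusted p = 0.381). In all, 4 members had 1 sign in every region used at the low dose, against 9.97% of all probes. None of these passed the adjusted test. At the high dose, which may rest on the same saline RNA, Scn3a had a mean of -0.07 ± 0.034 with 4 of 6 regions below 0 (adjusted p = 0.473). There Scn2a A_44_P100365, Scn2a A_44_P121187 and Scn8a had means of -0.03, -0.01 and -0.02, with adjusted p of 0.810, 0.908 and 0.903.

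Of the other extremes at the high dose, Scn11a (0.04 ± 0.028, 5 of 6 regions above 0, adjusted p = 0.613) came next to Scn4b. Cacnb1 had -0.06 ± 0.056 over 5 regions (adjusted p = 0.726), from -0.31 in ventral striatum to 0.19 in hypothalamus, and was -0.0014 without ventral striatum and -0.13 without hypothalamus. Cacna1i A_44_P405083 was the lowest at -0.10 ± 0.053 over 4 regions (adjusted p = 0.523), with -0.31 in midbrain and between -0.09 and 0.05 in the others. The overlapping Cacna1i probe, A_44_P405084, had a mean of the other sign, 0.02 ± 0.034. Behind Scn4b at the low dose came Scn9a A_44_P386383 at 0.07 ± 0.036 (adjusted p = 0.482) and Scn10a at 0.05 ± 0.029 (adjusted p = 0.566), each over 5 regions with 4 above 0. The other Scn9a probe, A_44_P113806, had a low-dose mean of -0.05 ± 0.029.

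**Figure D5:**
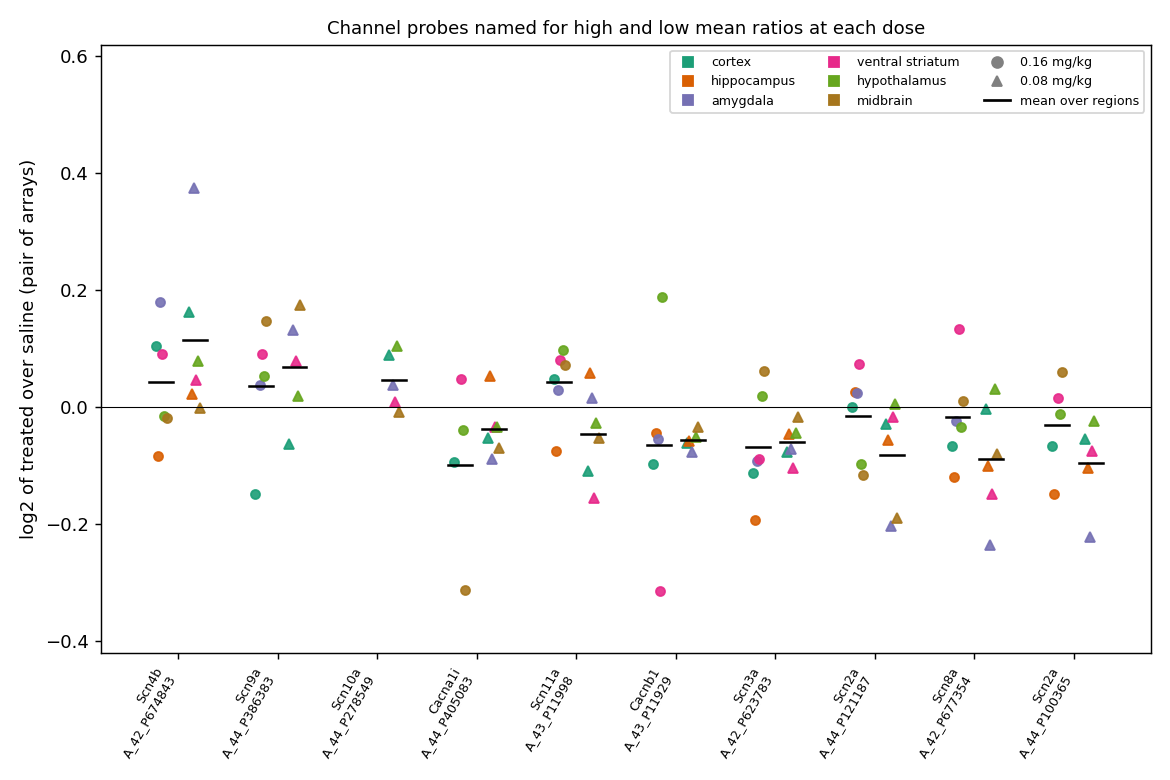
Log2 ratio of treated over saline in each region (colour) for channel probes among the 3 highest and 3 lowest mean ratios at either dose, as circles for 0.16 mg/kg and triangles for 0.08 mg/kg, with bars at the mean over regions. Points of the different regions straddle 0 for most probes, and the value farthest from 0 is Scn4b in amygdala at the low dose, 0.37.

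Between the doses, high minus low, the largest means were 0.09 ± 0.044 for Scn11a (5 of 6 regions above 0, adjusted p = 0.492), 0.07 ± 0.047 for Scn8a (3 of 6, adjusted p = 0.621) and 0.07 ± 0.039 for Scn2a A_44_P121187 (5 of 6, adjusted p = 0.575). The lowest were -0.07 ± 0.035 for Scn4b A_42_P674843 (5 of 6 below 0, adjusted p = 0.489), -0.06 ± 0.033 for Scn1a (5 of 6, adjusted p = 0.503) and -0.05 ± 0.052 for Cacna1i A_44_P405083 (3 of 4, adjusted p = 0.779). The overlapping Cacna1i probe, A_44_P405084, lay at 0.05 ± 0.046. None differed by the test, and of 43 members 22 were above and 21 below 0.

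Within a single region a pair of arrays is 1 replicate, so values are given with no test. No member was past 1.5-fold with both arrays of 1 sign in any of the 6 regions at either dose, where 0.12% to 0.355% of all probes measured in a region were. The largest region values among members were 0.37 and -0.33, both in amygdala at the low dose, where the members' median was -0.07 and that of all probes -0.0022.

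Genes that work beside the channels were given as lists. Of the channel partners, which anchor, modify or couple the channels to release (ankyrins, Fgf11 to Fgf14, the RGK proteins, the SNARE and active zone proteins and calmodulins), 31 of 32 were on the array. At the high dose 0 of 27 tested were called, against 2.11% of all probes. Of 29 tested at the low dose 1 was called, against 2.41% of all probes. Between the doses 0 of 26 were called. Of the genes downstream of calcium entry, 0 of 25 and 0 of 26 were called at the high and low dose. Between the doses 1 of 25 was called, against 1.58% of all probes. Camk2a, a calmodulin-dependent kinase of synapses, had a high minus low difference of -0.20 (SE 0.037, limma adjusted p = 0.014). The 5 AMPA receptor genes had no call in any comparison. The medians of the 3 lists ran from -0.04 to 0.01.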

How the data were processed

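Per the labels, total RNA of 6 brain regions was amplified, labelled with Cy3 and Cy5 and hybridised to rat 44K arrays. Per the file headers and the submitters' processing notes, the deposited scanner files came from Agilent Feature Extraction 9.5.3.1 and hold intensity values per spot, with probe coordinates of build rn3. The authors' deposited value table holds log10 ratios, of which 100% lay within 0.01 of the turned ratios of the scanner software, and served as an alternative. The mean signal intensities were corrected with the background medians (normexp, offset 50, which draws ratios of dim probes toward 1) and normalized by loess within each array in limma 3.58.1 (R 4.3.3). Control spots had weight 0, outlier spots (236 to 708 per array) were left out, swapped arrays were turned, and the 2 arrays of a pair were averaged. A region entered for a probe well above background on both arrays of the pair in the saline or the treated channel, and a probe was tested with 4 or more regions. Tests were limma's lmFit and eBayes over regions, two-sided, with Benjamini-Hochberg adjustment over all probes tested and a threshold of 0.05, and were tested on simulated data. Saline levels are log2 of the saline channel after loess and Aquantile between arrays, with the mean and SD over 4 arrays. Their scale is not comparable between probes, and the number of arrays limits the precision. A gene of a list was read by its brightest probe, and marker levels by region use the markers with a value in every region.

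Single results for 2 members and 1 listed gene are not reported here, and the counts include them. The members, lists and markers were chosen with earlier results of these data known. Named with values were all members called, the 3 highest and 3 lowest mean ratios of each comparison, members past 1.5-fold in 1 region, the 20 widest saline ranges, genes with several probes and the member of each role with the brightest probe. The alternatives were the processed signals, median centring, offset 16, the deposited table, no filter and a stricter filter, 1 probe per gene, each region left out, scan day, each replicate of the pairs alone, and a fit of 12 arrays. For saline levels they were 2 other normalizations, each array left out and a 1.5-fold rule. Removal of each probe's dye effect and the treated channels in place of saline were chosen after seeing the data.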

Additional observations from a re-analysis of the deposited data

Results flagged for a closer look

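Of 106 saline groups of 4 arrays (19 members with a wide range, by region), 15 held 1 array set apart from the other 3 by a gap large against the range of the group. Chance sets about 1 in 20 groups apart in this way. Replicate 1 of the amygdala high-dose pair read low for Scn4b A_42_P674843 (9.04 against 9.88 to 9.95), Cacna2d1 (14.60 against 15.64 to 15.71), Scn2a A_42_P529319 (11.82 against 13.41 to 13.49) and Cacna1h (7.51 against 8.32 to 8.42). Replicate 1 of the ventral striatum high-dose pair read low for Scn4b A_42_P674843 (15.31 against 16.13 to 16.24) and Cacna1d A_44_P203246 (8.90 against 9.92 to 9.93) and high for Scn2a A_44_P100365 (13.56 against 12.75 to 12.83). Replicate 1 of the hypothalamus low-dose pair read low for Cacna2d3 (10.01 against 11.51 to 11.59), Cacng3 (8.19 against 8.81 to 8.86), Cacna1h (7.57 against 8.03 to 8.11) and Cacna1d A_44_P203246 (8.39 against 8.69 to 8.74). In hippocampus, Scn7a read 6.19 on replicate 2 of the low dose (6.55 to 6.58 on the others), where it was not above background, and Scn2a A_42_P529319 read 13.68 on replicate 1 of the low dose (13.93 to 13.97). Scn7a read 8.61 in hypothalamus on replicate 1 of the high dose (9.48 to 9.66). In cortex, Cacna2d1 read 14.50 on replicate 1 of the high dose (15.79 to 15.95). Several of these arrays also stood apart over all probes. The SD over all probes of an array's departures from the other 3 arrays of its region was 0.388 for replicate 1 of the amygdala high-dose pair (0.150 to 0.231 on the other amygdala arrays), which had the lowest share of probes above background in saline, 55.7%. It was 0.417 for replicate 1 of the ventral striatum high-dose pair (0.198 to 0.3003 on the others) and 0.444 for that of cortex (0.240 to 0.367). Replicate 1 of the low-dose pair had 0.401 in hypothalamus (0.250 to 0.311 on the others) and 0.524 in hippocampus (0.345 to 0.491). The treated channel of each array departed with its saline channel. None of 17 sets of region ratios was set apart in this way, and no channel probe differed between the doses by the test.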

How the results depend on the processing

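No channel probe was called at either dose or between the doses with processed signals, median centring, an offset of 16, the deposited table, no filter, the stricter filter, 1 probe per gene, any region left out, the scan day as a block or, at either dose, the fit of 12 arrays. The exceptions were the fits of only 1 array of each pair, in which the dye effect is not cancelled. They called 6 and 7 members at the high dose and 15 and 11 at the low dose, so leaving out data gave 0 to 7 and 0 to 15. Over all probes the counts were 359, 151 and 349 at the high dose with processed signals, median centring and the deposited table (551 in the fit reported), 409, 410 and 404 at the low dose (659), and 255, 106 and 254 between the doses (397). The scan day block gave 437 at the low dose. Leaving out a region or a replicate gave 317 to 8742, 417 to 9570 and 169 to 355; over regions alone the lowest were without cortex at the high dose and without ventral striatum at the low dose (417) and between doses (259). The share of calls that were higher at the high dose was 40.6% without replicate 1, against 52.6% with both replicates. With median centring the high-dose ratio of Scn4b A_42_P674843 (-0.026) turned sign. With 1 array of each pair left out, ranges that crossed 0 were -0.036 to 0.12 for Scn4b A_42_P674843 and -0.036 to 0.12 for Scn11a at the high dose, -0.057 to 0.19 for Scn9a A_44_P386383, -0.0059 to 0.0996 for Scn10a and -0.47 to 0.30 for Scn2a A_44_P121187 at the low dose, and -0.17 to 0.064 for Cacna1i A_44_P405083 between the doses. The cause was not tested. Of 408 values under alternatives for single members, medians and shares of calls that were higher, 391 counted as unchanged. Tested single members counted so where they kept their direction and side of the threshold, which does not limit how far a value moved. No member was past that threshold in the fit reported. Medians, and values of a scan day alone, did where they shifted by less than the SD over regions. Shares of calls did where they stayed within a set margin.

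For saline levels 16 members had a highest and 9 a lowest region with processed signals minus the 75th percentile, against 10 and 5 (12.05% and 7.19% of all probes, against 6.87% and 3.42%), and all but Cacng8 of the 10 were among the 16. With no normalization between arrays 7 had a highest and 5 a lowest region (9.79% and 3.52% of all probes), and 6 and 4 of these were the same probe and region as in the values reported. Leaving out an array of each region gave 9 to 13 highest and 5 to 9 lowest regions (7.77% to 8.63% and 3.96% to 4.88% of all probes), the most without array 3 (9) and array 4 (8) for the lowest. No further pairing by replicate number was possible because these numbers name the dye orientation of a pair and each array already holds treated and saline RNA. The comparison between the doses was paired by region. The fit of 12 arrays, whose dye term stands for the replicate number, called 780 and 980 of all probes at the high and low dose. Dim members such as Scn10a, Cacng4 and Cacna1s lie near background, where the offset draws ratios toward 1.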

Other observations

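Marker genes of cell types and of the dissected regions were tested in the same way as the channel genes. Their counts stand beside 2.11%, 2.41% and 1.58% of all probes called by limma at the high dose, at the low dose and between the doses, and no difference from the channel genes was tested. At the low dose 4 of 8 microglial markers rose by limma's adjusted test (P2ry12 by 0.17, C1qa by 0.15, C1qb by 0.11 and C1qc by 0.22 on the log2 scale), and 3 of 8 had a negative difference between high and low dose that was called. The microglial list ran from -0.04 to 0.22 at the low dose. Of 6 meningeal markers 0 were called in any comparison, but at the low dose they ran from -0.49 to -0.06, with a median of -0.34. By limma 4 of the 6 had an unadjusted p under 0.05 there. Their median at the high dose was -0.03. The 3 blood markers measured (Hbb, Alas2 and Pf4) all rose at the high dose, by 0.30 to 0.33, and 2 of them had ratios of -0.54 (Hbb) and -0.31 (Alas2) at the low dose, both called. Of 8 oligodendrocyte markers 1 was called at the high dose, Aspa at 0.31, where the list ran from -0.10 to 0.31 with a median of 0.05. At the low dose 2 of them were called, Aspa at 0.26 and Mag at 0.13, with a range from 0.03 to 0.26 and a median of 0.13. Sox9, a glial transcription factor and 1 of 8 astrocyte markers, was called lower at both doses (-0.34 and -0.24), as was Kdr, an endothelial receptor and 1 of 6 endothelial and mural markers tested (-0.18 and -0.30). The astrocyte list had medians of -0.04 and -0.03 at the high and low dose and reached up to 0.02 and 0.07. The endothelial and mural list had medians of -0.04 and -0.02 and reached up to 0.02 and 0.03. Of 6 hypothalamic markers tested at the low dose, Agrp (-0.11) and Trh (0.15), both peptide genes, were called in opposite directions. In saline Trh had its highest level in hypothalamus, 10.48, but Agrp had its lowest there, 7.20, so the Agrp probe did not mark that piece. None of 8 neuronal markers was called in any of the 3 comparisons by limma; 0, 0 and 2 of them had an unadjusted p under 0.05.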
